A study of Homo sapiens with 11 samples.

Results

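ISRIB, a small molecule that binds the translation factor eIF2B, was given to HEK293T cells with no stress-inducing compound beside it, and transcript levels were compared with those under vehicle (DMSO). The comparison takes 5 of the 11 libraries of the series, chosen by their treatment labels: the only 2 from cells given DMSO with ISRIB, and the 3 from cells given DMSO. HEK293T is a human embryonic kidney line that expresses the SV40 large T antigen. The remaining 6 libraries are from cells given the compound A8 at 10 µM, 3 without and 3 with ISRIB, and they serve below as a separate reading of ISRIB. The design text names the replicates biological, and the labels report that a further library of the ISRIB group, replicate 2, was left out by the submitters because of its quality. Treatment lasted 8 h according to the titles and 4 h according to the treatment protocol. The labels give no dose for ISRIB and describe the cells as HEK293 in one place and HEK293T in another. The numbers of the 2 ISRIB columns in the count table differ from those in the titles, so these libraries are called a and b and are paired with no vehicle library.

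In the integrated stress response, kinases that each sense a different stress phosphorylate eIF2, which then blocks its own exchange factor, eIF2B. Less active eIF2B lowers general protein synthesis but raises translation of ATF4, a transcription factor that switches on genes for amino acid uptake and synthesis, tRNA charging and growth control. ISRIB joins eIF2B subcomplexes into the active decamer and so reduces the output of the pathway when eIF2 is phosphorylated.

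ATF4 dimers bind a composite C/EBP-ATF element, which was searched as TGATGNAA on both strands of RefSeq promoters (build GRCh38.p14, 250 bases before to 50 after the annotated start). The promoter of CHAC1, one of the genes with the largest difference in these libraries, is shown because it holds the element. It is the 250 bases before the start, at chr15:40953221-40953470 on the plus strand, and the match, which lies on the opposite strand, is in capitals.
CHAC1: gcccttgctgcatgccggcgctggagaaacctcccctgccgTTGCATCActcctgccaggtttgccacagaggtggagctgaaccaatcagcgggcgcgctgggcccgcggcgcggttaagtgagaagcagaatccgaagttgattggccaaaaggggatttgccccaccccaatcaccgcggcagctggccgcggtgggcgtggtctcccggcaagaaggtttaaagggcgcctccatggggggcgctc
Of 5 further members shown next, AARS alone has its match on the opposite strand. Windows of 36 bases around the element of these 5, each wholly upstream of the start, show how the shared core sits in different surroundings. They lie at chr7:97872455-97872490 (ASNS, minus strand), chr19:33374057-33374092 (CEBPG, plus strand), chr19:46784890-46784925 (SLC1A5, minus strand), chr16:70289672-70289707 (AARS, minus strand) and chr1:212565202-212565237 (ATF3, plus strand), each printed 5′ to 3′ on the strand of its gene.
ASNS: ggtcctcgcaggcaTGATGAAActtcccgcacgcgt
CEBPG: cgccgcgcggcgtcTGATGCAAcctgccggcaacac
SLC1A5: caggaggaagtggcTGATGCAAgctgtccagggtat
AARS: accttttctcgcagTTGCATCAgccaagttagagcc
ATF3: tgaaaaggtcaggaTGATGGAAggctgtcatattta
A promoter was matched for 50 of the 66 stress response members described below, and 19 of them (38%) held a match, against 314 of 11855 genes tested (2.65%) and 3.62% of the 35116 promoters in the table. The median log2 fold change (log2FC) with ISRIB was -0.11 for the 19 members with a match and -0.18 for the 31 without one. The median of members with the element in this window was thus no lower than that of members without it, and a match describes letters, not binding.

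The 5 libraries were of near-equal depth, with 34707001 to 35067799 counts over 27671 gene symbols, and a count of 0 allows up to 0.0839 to 0.0866 CPM (taken as 3 counts and covering counting error only). Levels are CPM, counts relative to library size after TMM scaling, which corrects for library composition. In bulk RNA, fewer expressing cells and less RNA per cell cannot be told apart. Markers of HEK293 lines (NEFM, NEFL, INA, PAX2, KRT8, KRT18 and VIM) summed to 894 to 954 CPM in vehicle and 870 to 929 CPM with ISRIB. Of 16 markers of other cell types, PTPRC, CD3E, HBB, PECAM1, CDH5, ALB and KRT5 were at 0 in both groups, and the 16 summed to 22.0 to 25.6 CPM in vehicle and 19.99 to 21.1 CPM with ISRIB. Only 4 of the 16 passed the filter on low counts. All 4 had fold changes below 0 (median log2FC -0.62, or -0.50 with the GC trend described below removed), 2 at an unadjusted p under 0.05 in edgeR. Of the 7 HEK293 markers 6 were below 0 (median -0.06), with 0 lower at that p. Of all genes tested 49.5% were below 0. Mitochondrial transcripts took 8.50% to 11.2% of counts in vehicle and 11.7% and 9.32% with ISRIB.

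No gene passed an adjusted p of 0.05 in edgeR's quasi-likelihood test of ISRIB against vehicle, in either direction, over 15591 genes tested (0%). At an unadjusted p under 0.05, 871 genes (5.59%) were lower and 623 (4%) higher. The DESeq2 Wald test, which gave adjusted p-values for 8888 genes, called 45 lower (0.506%) and 5 higher (0.0563%). Of the 66 members of the stress response lists described below, 5 were among the 45 (SLC6A9, CEBPB, DDIT4, SESN2 and STC2). None was among the genes higher. The members CHAC1, NUPR1, DDIT3, VLDLR and SLC7A11 were given no adjusted p in that test, so they could not be called. In the authors' deposited table, genes lower at an adjusted p under 0.05 numbered 7 (0.0436% of 16043) with 1 higher (0.00623%). Of those 7, 5 belong to the stress response: SLC6A9, CHAC1, DDIT4, SESN2 and STC2. The others were PBX2 and NBL1, and the gene higher was RPL36A-HNRNPH2. NBL1 and RPL36A-HNRNPH2 are described below among symbols that share exons with a neighbour. The edgeR count moved to 2 lower and 1 higher without vehicle library 1, and to 1 higher without ISRIB library a.

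Integrated stress response transcripts, in lists chosen with earlier results of these data known, lay lower with ISRIB as a group. Of 66 members in 5 lists, all of which passed the filter on low counts, 54 (81.8%) had a log2 fold change below 0, where 49.5% of all genes tested did. At an unadjusted p under 0.05, 24 members (36.4%) were lower and 1 was higher, against the 5.59% and 4% of all genes. Both ISRIB libraries lay below all 3 vehicle libraries for 30 members (15.1% of all genes tested did so) and above them for 3 (13.9%). The median member had a log2FC of -0.12, while the median gene tested was at 0.00. The 66 members ranged from -2.28 to 0.18. Left out in turn, the libraries moved the count of 24 to between 15 and 21, with 15 when ISRIB library b was absent and 16 when ISRIB library a was. The plot of fold changes by list sets these members beside the other pathways.

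**Figure D1:**
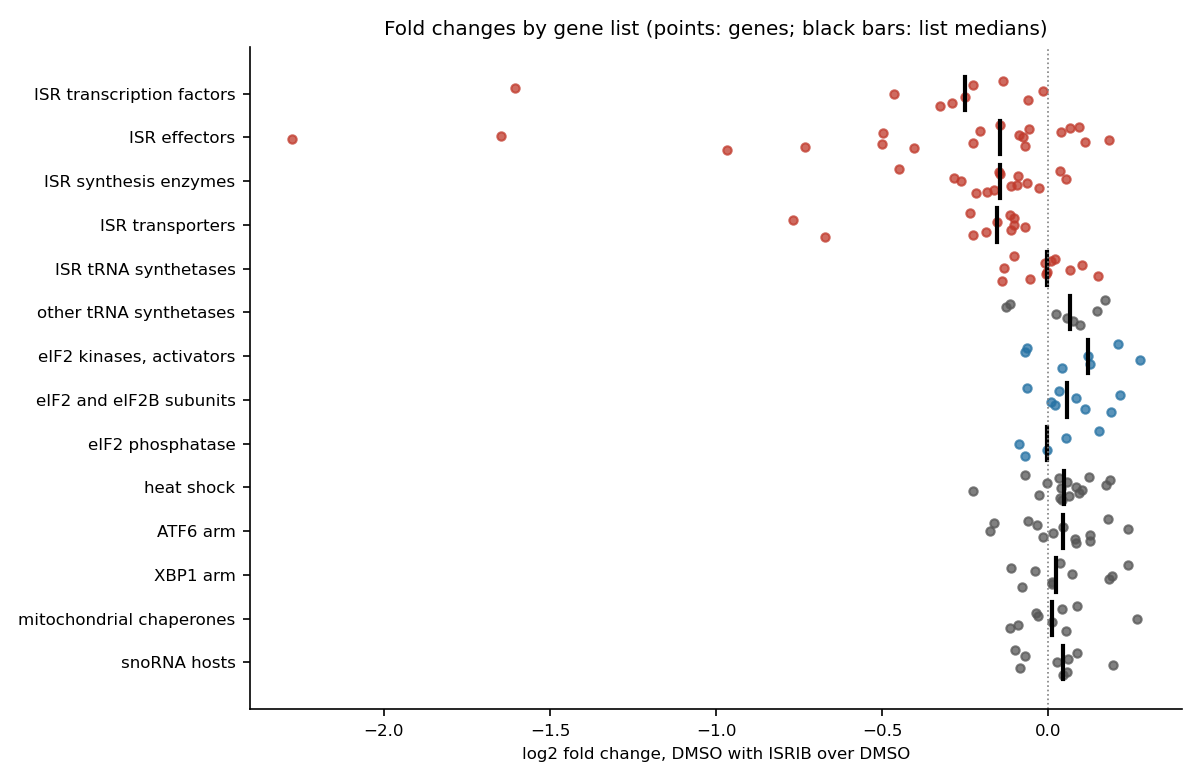
Log2 fold changes of ISRIB over vehicle (horizontal axis) for each gene (points) of 14 gene lists, with list medians as black bars; integrated stress response lists are red, lists upstream of eIF2B blue and other lists grey. The medians of the first 4 red lists lie between -0.25 and -0.14, while that of the tRNA synthetases and those of the lists under it lie between 0.00 and 0.12.

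Among the transcription factors and their regulators all 9 members had fold changes below 0, where 49.5% of all genes tested did. Their median was -0.25 on the log2 scale, and 4 were lower at an unadjusted p under 0.05 (5.59% of all genes). ATF4, the central activator, was measured at 897, 846 and 765 CPM in vehicle and at 638 and 696 CPM with ISRIB. The groups did not overlap, and the log2FC was -0.33 (SE 0.10, 95% interval -0.53 to -0.12, adjusted p = 0.368 in edgeR). CEBPB, a bZIP partner of ATF4, was at 33.9, 31.2 and 26.7 CPM against 20.4 and 23.9 CPM, a log2FC of -0.47 (SE 0.11). The 2 groups were again apart, with vehicle library 3 nearest to the ISRIB libraries. ATF5, whose translation is controlled through upstream reading frames as that of ATF4 is, was at 30.4, 31.1 and 31.4 CPM against 26.9 and 23.7 CPM, a log2FC of -0.29 (SE 0.11). NUPR1, a small stress-induced chromatin protein, was at 1.11, 1.21 and 0.683 CPM against 0.404 and 0.252 CPM. These rest on only 39, 43 and 24 counts against 14 and 9, and the log2FC of -1.61 has an SE of 0.38.

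The remaining 5 transcription factors and regulators differed less. DDIT3, which encodes the death-related factor CHOP, was at 4.39, 4.47 and 4.10 CPM against 3.55 and 3.72 CPM. Its groups did not overlap, and the log2FC of -0.25 had a 95% interval of -0.56 to 0.06. TRIB3, a pseudokinase that restrains ATF4 activity, was at 16.1, 15.4 and 15.3 CPM against 13.0 and 13.6 CPM, a log2FC of -0.23 (SE 0.12). For ATF3 (12.6, 10.9 and 9.97 CPM against 9.82 and 11.5 CPM) and CEBPG (17.6, 13.4 and 13.0 CPM against 13.5 and 15.5 CPM) the libraries of both groups overlapped. JDP2, a repressor of the same bZIP family, overlapped as well, at a log2FC of -0.14 (SE 0.20).

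The 5 stress response genes called in the authors' deposited table are 4 effectors and 1 transporter. SLC6A9, the glycine transporter GlyT1, was at 25.5, 29.3 and 31.4 CPM in vehicle and at 15.9 and 17.8 CPM with ISRIB. Every ISRIB library was below every vehicle library, the ISRIB mean was 58.7% of the vehicle mean, and the log2FC was -0.77 (SE 0.12). Its adjusted p of 0.0897 in edgeR was the smallest of the 15591 genes and ranged over the 11 alternative fits from 2.45e-06 to 0.680, with 4 of them under the threshold. CHAC1, an enzyme that degrades glutathione, was at 5.62, 5.40 and 4.64 CPM against 2.34 and 2.99 CPM. This corresponds to a level of 51.0% of vehicle and a log2FC of -0.97 (SE 0.19, adjusted p = 0.237 in edgeR). DDIT4, which restrains the growth kinase mTORC1, was at 38.1, 29.5 and 26.8 CPM against 17.0 and 20.9 CPM, a log2FC of -0.73 (SE 0.15). SESN2, a leucine sensor that also restrains mTORC1, was at 88.0, 84.4 and 83.9 CPM against 65.0 and 64.2 CPM, a log2FC of -0.40 (SE 0.08). The secreted glycoprotein STC2 was at 30.2, 31.3 and 29.1 CPM against 21.8 and 20.9 CPM, a log2FC of -0.50 (SE 0.10). In all of these the 2 groups were fully apart, and DDIT4 had the widest spread among vehicle libraries.

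**Figure D2:**
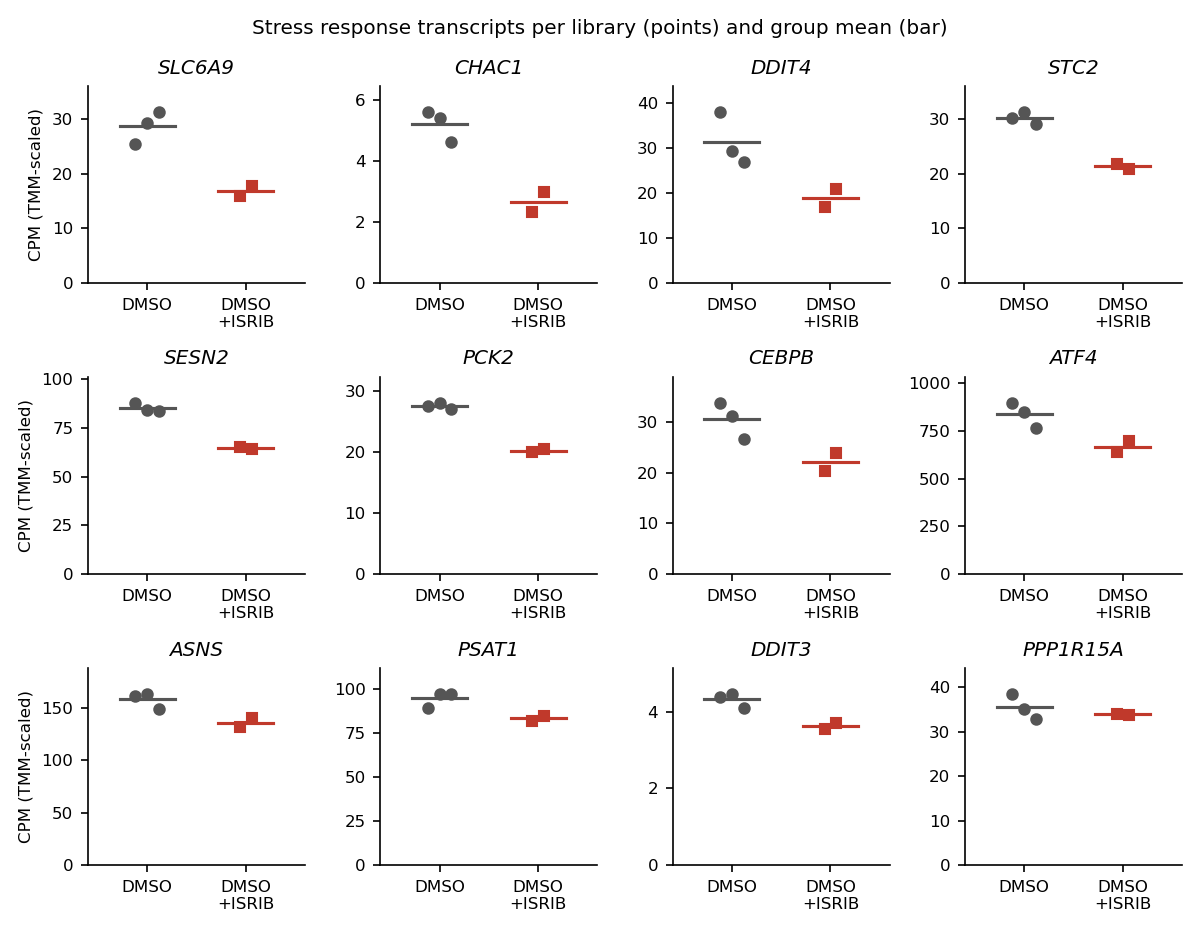
TMM-scaled CPM (vertical axes, from 0) of 12 stress response transcripts in the 3 vehicle libraries (grey circles) and the 2 ISRIB libraries (red squares), with group means as bars. Both ISRIB points lie below all vehicle points in every panel except that of PPP1R15A. The 12 were chosen for display. Of all 66 members 30 were apart in this way, as were 15.1% of all genes tested.

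Effectors as a list had 14 of 19 members below 0, where 49.5% of all genes tested were. Their median log2 fold change was -0.15, and 7 members were lower at an unadjusted p under 0.05 (5.59% of all genes). The median was -0.23 without ISRIB library b, and with the GC trend described below removed it was -0.10, with 12 of 19 below 0. Besides the 4 above these were BBC3, a pro-apoptotic BCL2 family protein (-0.50, SE 0.17), EIF4EBP1, a repressor of cap-dependent translation (-0.21, SE 0.08), and ADM2, a peptide hormone counted 25, 27 and 24 times in vehicle and 6 and 10 times with ISRIB. PPP1R15A, the stress-induced subunit that brings a phosphatase to eIF2, did not share this pattern. It was at 38.6, 35.2 and 32.9 CPM against 34 and 33.8 CPM, a log2FC of -0.07 with a 95% interval of -0.30 to 0.16. VLDLR, a lipoprotein receptor, was at 4.42, 4.33 and 4.90 CPM against 3.41 and 4.36 CPM, with overlap, and its log2FC of -0.23 was -0.06 without ISRIB library a and -0.42 without ISRIB library b. The secreted hormones were close to the counting limit. FGF21 had 6, 0 and 10 counts in vehicle and 2 and 0 with ISRIB, and GDF15 had 17, 9 and 3 against 8 and 14, so no difference was detectable at this depth.

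All 11 amino acid transporters had fold changes below 0, where 49.5% of all genes tested did. Their median was -0.15 on the log2 scale, and 6 were lower at an unadjusted p under 0.05 (5.59% of all genes). With the GC trend described below removed, 11 were still below 0 and the median was -0.12. In that fit 2 were lower at an unadjusted p under 0.05 (2.98% of its genes). SLC7A11, the cystine importer, was at 5.05, 6.70 and 8.94 CPM in vehicle and at 3.78 and 4.87 CPM with ISRIB. ISRIB library b lay close to vehicle library 1, and the log2FC of -0.67 had an SE of 0.28. It was -0.44 without vehicle library 3 and -0.87 without ISRIB library b. SLC3A2, the heavy chain that carries SLC7A11 and SLC7A5 to the membrane, had a log2FC of -0.19 (SE 0.07), and SLC7A5, a carrier of large neutral amino acids, one of -0.23 (SE 0.10) with overlapping libraries. The others under the threshold were the glutamine carrier SLC1A5 (-0.15, SE 0.07) and SLC43A1 (-0.24, SE 0.11), beside SLC6A9. The list median per library spread widely in vehicle, from -0.17 in library 1 to 0.13 in library 3 relative to the vehicle mean, and ISRIB library a, at -0.14, lay within that range while ISRIB library b was at -0.23.

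The list of biosynthetic enzymes had a median close to those of the effectors and transporters. Of 15 members 13 were below 0, where 49.5% of all genes tested were. The median log2 fold change was -0.14, and 5 were lower at an unadjusted p under 0.05 (5.59% of all genes). ASNS, asparagine synthetase, was at 161, 163 and 149 CPM against 131 and 140 CPM, a log2FC of -0.22 (SE 0.07). PSAT1, an enzyme of serine synthesis, was at 89.4, 97.3 and 97.2 CPM against 81.9 and 84.9 CPM, a log2FC of -0.18 (SE 0.07). PCK2, the mitochondrial enzyme that makes phosphoenolpyruvate, had the largest difference of the list. It was at 27.6, 28 and 27.0 CPM against 19.9 and 20.4 CPM, a log2FC of -0.45 (SE 0.12). PYCR1, of proline synthesis (-0.28, SE 0.08), and PHGDH, the entry enzyme of serine synthesis (-0.16, SE 0.07), were the other 2. MTHFD2, of mitochondrial one-carbon metabolism, was at 140, 150 and 144 CPM against 132 and 139 CPM without passing an unadjusted p of 0.05, and CTH, of cysteine synthesis, was at 19.2, 13.8 and 18.0 CPM against 17.0 and 15 CPM with overlap.

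The tRNA synthetases known as ATF4 targets were centred at 0 instead. Of 12 genes 7 were below 0 (49.5% of all genes tested were), the median log2 fold change was 0.00, and the range was -0.14 to 0.15. AARS (-0.14, SE 0.06) and MARS (-0.13, SE 0.06) were lower at an unadjusted p under 0.05, and EPRS (0.15, SE 0.07) was higher. The list median per library stayed within 0.04 of the vehicle mean in both ISRIB libraries, at -0.04 and 0.02. Of 8 synthetases that are not usually counted among ATF4 targets, 2 were below 0 and the median was 0.07.

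Components upstream of ATF4 were not lower as lists. The 8 genes for subunits of eIF2 and eIF2B, the latter being the target of ISRIB, had a median log2 fold change of 0.06. Of them 1 was below 0, where 49.5% of all genes tested were. For the catalytic subunit gene EIF2B5 the values were 71.2, 68.8 and 64.6 CPM in vehicle and 65.8 and 64.6 CPM with ISRIB. EIF2B1 was at 95.9, 94.3 and 101 CPM against 92.8 and 102 CPM, with a 95% interval of the log2 fold change from -0.13 to 0.15. EIF2B2 was at 130, 131 and 135 CPM against 137 and 142 CPM, and EIF2B4 at 124, 120 and 120 CPM against 122 and 127 CPM. The groups overlapped for EIF2B1, EIF2B4 and EIF2B5, while both ISRIB libraries lay above vehicle for EIF2B2. Only EIF2B3 (61.4, 73.9 and 63.5 CPM against 75.3 and 78.7 CPM, 0.22, SE 0.08) and EIF2S1 (0.19, SE 0.08) of these 8 were higher at an unadjusted p under 0.05. The kinases and their activators had a median of 0.12, with EIF2AK3, the kinase PERK of the endoplasmic reticulum (0.28, SE 0.12), and OMA1, a mitochondrial protease that relays stress to eIF2 kinases (0.21, SE 0.08), higher at an unadjusted p under 0.05. The phosphatase subunits had a median of 0.00, and PPP1CC alone of the 5 was past that p (0.15, SE 0.07). With the GC trend described below removed, no kinase, activator or phosphatase gene was higher at that p. Of the 8 eIF2 and eIF2B genes 1 was.

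Fold changes followed transcript GC content in these libraries. Over 14375 genes with a GC value (92.2% of those tested), Spearman's rho of the log2 fold change with GC content was -0.47, as a description across genes that share libraries. The median fold change went from 0.11 in the lowest of 10 equal bins of GC content (median 37.3%) to -0.16 in the highest bin (64.7%). Each library's own trend, as Spearman's rho of its deviation from the mean of all 11 libraries with GC, was 0.45, 0.19 and -0.04 in vehicle and -0.21 and -0.39 with ISRIB. The GC trend therefore differed between libraries of the same group as well as between the groups. Stress response members have a median GC content of 51.9% against 49.2% over all genes.

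**Figure D3:**
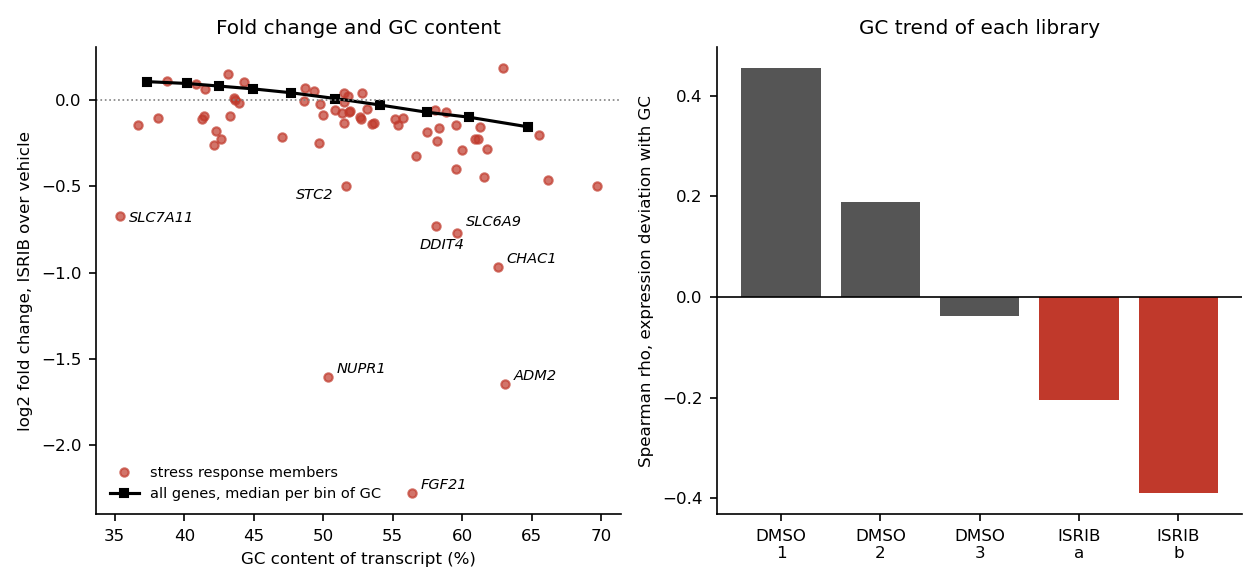
Left, log2 fold change of ISRIB over vehicle against the GC content of the transcript (%) for the stress response members (red points), with the median of all genes per bin of GC content (black line). Right, Spearman's rho of each library's expression deviation with GC content, from 0.45 in vehicle library 1 to -0.39 in ISRIB library b; 55 of 66 members lie below the median of their own bin.

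Within their own bin of GC content, 55 of the 66 members lay below the bin's median. With each library's GC trend removed before the fit, 54 members were still below 0 (49.3% of all genes in that fit), their median was -0.10, and 16 were lower at an unadjusted p under 0.05 while none was higher, against 2.98% and 2.23% of the genes in that fit. By list, 3 transcription factors, 5 effectors, 6 synthesis enzymes, 2 transporters and 0 tRNA synthetases were among the 16, a count that became 10 without ISRIB library a. SLC6A9 was then at -0.68, CHAC1 at -0.83, DDIT4 at -0.65, STC2 at -0.50 and SESN2 at -0.31 on the log2 scale. Other members moved by more than 1.5 times, in both directions. Among those moving away from 0 were MTHFD2 (-0.09 to -0.18), CTH (-0.09 to -0.17) and CEBPG (-0.02 to -0.09). The following moved toward 0. CEBPB went from -0.47 to -0.29, BBC3 from -0.50 to -0.28, TRIB3 from -0.23 to -0.12, PYCR1 from -0.28 to -0.16, SLC7A5 from -0.23 to -0.12, SLC3A2 from -0.19 to -0.12 and PHGDH from -0.16 to -0.08. EIF4EBP1, whose transcript has a GC content of 65.5%, and SLC1A5 (61.3%) both came to -0.04, and EPRS went from 0.15 to 0.08. The kinase median became 0.03 and the eIF2 and eIF2B median 0.04. That of the tRNA synthetases known as ATF4 targets became -0.03, with 9 of 12 below 0. The other synthetases had a median of 0.02, with 1 of 8 below 0.

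ISRIB was also added to A8, and those 6 libraries share none with the comparison above, although all 11 entered one fit and share its estimate of spread. In them 25 genes fell (0.16% of 15591, adjusted p under 0.05 in edgeR) and 3 rose (0.0192%), and 22 of the 25 belong to the stress response lists. Those lists hold 66 of the 15591 genes tested. They were chosen with earlier results of these data known, so this overlap is no separate support for them. The count of 25 became 14 without A8 library 1. In cells without A8 all 25 had fold changes below 0 (49.5% of all genes tested did). Of them 15 were lower at an unadjusted p under 0.05 (5.59% of all genes). For 17 both ISRIB libraries lay below all vehicle libraries (15.1% of all genes). The median of the 25 was -0.18 without A8 and -0.75 with it. Because the 25 were chosen by their values on top of A8, which favours large values there, these medians describe the genes and do not compare the settings. With the GC trend removed the median without A8 was again -0.18, and 25 were below 0. The 3 genes outside the integrated stress response lists were HERPUD1, of protein degradation at the endoplasmic reticulum (-0.17, SE 0.07, without A8), IFRD1 and TSC22D3. Lower at an unadjusted p under 0.05 in both settings were 22 of 66 members, where 69 of 15591 genes (0.443%) were.

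The level reached with ISRIB can be read for single genes. SLC6A9 was at 65.8, 55.1 and 50.1 CPM with A8 and at 16.8, 18.0 and 17.2 CPM with A8 and ISRIB, a range that overlaps the 15.9 and 17.8 CPM with ISRIB alone. CHAC1 was at 21.0, 16.0 and 13.8 CPM with A8 and at 4.29, 3.86 and 4.16 CPM with A8 and ISRIB, all above the 2.34 and 2.99 CPM with ISRIB alone. NUPR1 had a log2FC of -1.53 (SE 0.26) on top of A8 and -1.61 without it. ATF4 itself had -0.25 (SE 0.08) on top of A8 and -0.33 without it, and neither passed the adjusted p in edgeR. JDP2 (-1.10) and CTH (-0.90) fell on top of A8, and without A8 they were at -0.14 and -0.09. The difference between settings did not pass for either, with adjusted p-values of 0.356 for JDP2 and 0.241 for CTH in edgeR.

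**Figure D4:**
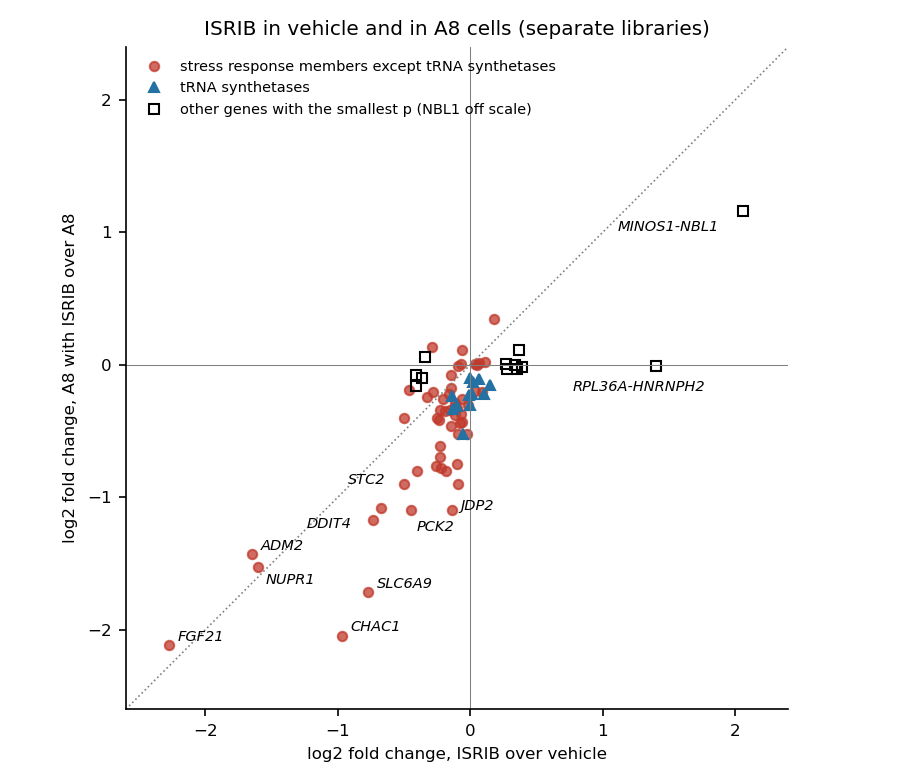
Log2 fold change of ISRIB over vehicle (horizontal) against that of A8 with ISRIB over A8 (vertical), from separate libraries, for stress response members (red circles), tRNA synthetases (blue triangles) and other genes with the smallest p without A8 (open squares); the dotted line marks equal values. Most named members lie under the dotted line, the tRNA synthetases lie near 0 on the horizontal axis and all below 0 on the vertical one, and FGF21 rests on 0 to 10 counts per vehicle or ISRIB library.

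The difference between settings was itself tested. In edgeR 2 genes had a lower fold change on top of A8 than without it (0.0128%), PSAT1 and SLC6A9, and 2 had a higher one (0.0128%), HSPA1A and HSPA1B. The tRNA synthetases had fold changes below 0 in 12 of 12 genes on top of A8 (50.3% of all genes), with a median of -0.23 and 4 genes called, but none of the 12 had a called difference between settings, and the median difference was -0.21. The plot of list medians by library shows where each list stood in all 11 libraries.

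**Figure D5:**
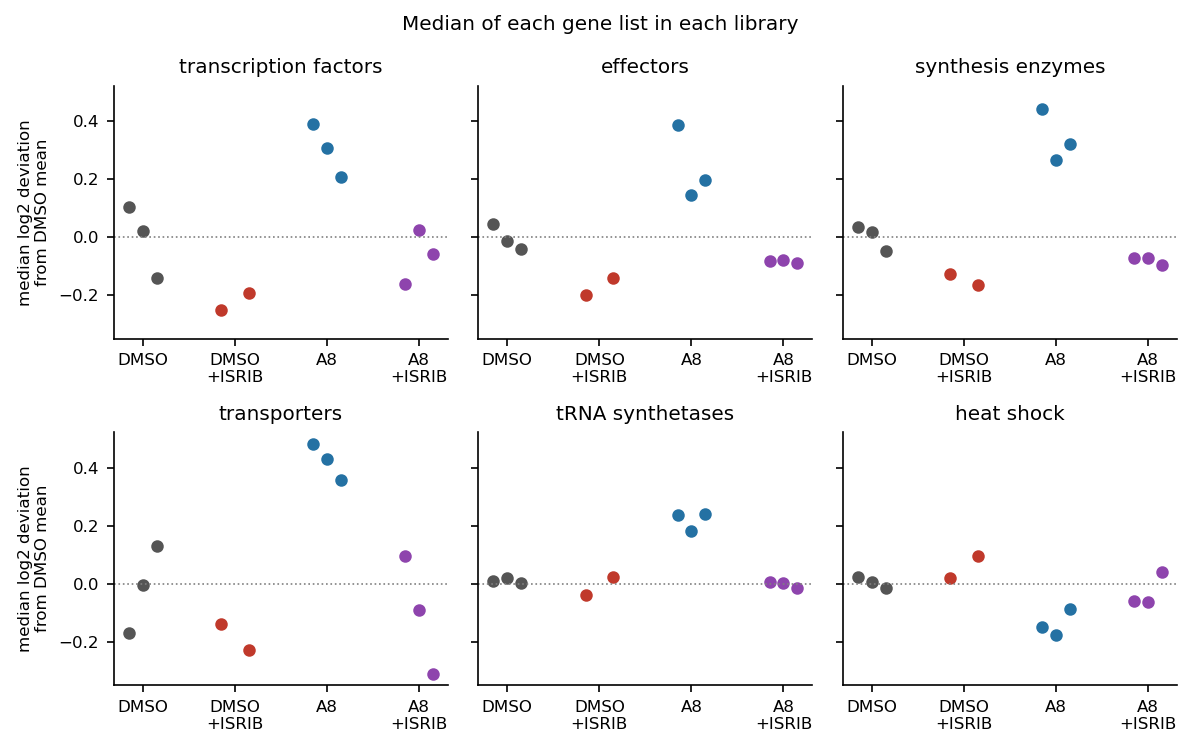
Median over each list of the log2 deviation from the vehicle mean (vertical axes), 1 point per library in 4 groups. For transcription factors, effectors and synthesis enzymes both ISRIB libraries lie under all vehicle libraries, transporters overlap between the groups, tRNA synthetases stay within 0.04 of 0 with ISRIB alone, and the A8 libraries lie highest in all panels except that of the heat shock genes, where they lie lowest.

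Lists of other stress and signalling pathways had median log2 fold changes between -0.09 and 0.07, and the difference from the integrated stress response was not tested. Heat shock genes had 4 of 16 below 0 and a median log2 fold change of 0.05, with the mitochondrial chaperonin HSPD1 (0.17, SE 0.07) and HSPA4L (0.19, SE 0.07) higher at an unadjusted p under 0.05. In the ATF6 arm of the unfolded protein response 5 of 13 were below 0 and the median was 0.05, with HERPUD1 lower and DNAJB11 (0.18, SE 0.08) higher. For XBP1 targets the median was 0.02 and SSR1 and SRP19 were past that p, both higher. Mitochondrial chaperones and proteases had a median of 0.01, with the protease YME1L1 at 0.27 (SE 0.07). Medians lay at -0.02 for NRF2 targets, where GCLM, a subunit of the enzyme that starts glutathione synthesis, was at 0.22 (SE 0.09), at -0.09 for p53 targets, at -0.03 for NF-kB targets, at -0.03 for hypoxia and glycolysis genes, at 0.07 for MondoA targets and at 0.05 for snoRNA host transcripts. Sterol genes had 11 of 15 below 0 and a median of -0.04, with INSIG1, LSS and SREBF1 lower at an unadjusted p under 0.05, and SREBF1 went from -0.24 to -0.08 with the GC trend removed. Of immediate early genes EGR1 (-0.65, SE 0.24, overlapping libraries) and JUNB (-0.24, SE 0.11) were lower at that p. With the GC trend removed, no gene of the heat shock, ATF6, XBP1 or NRF2 lists was higher at an unadjusted p under 0.05. Of the mitochondrial chaperones and proteases 1 was.

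Interferon and RIG-I pathway genes had a median of 0.05, and 1 of the 10 tested was past an unadjusted p of 0.05. This was IFIH1, the viral RNA sensor MDA5, at 0.342, 0.225 and 0.256 CPM in vehicle and 0.664 and 0.839 CPM with ISRIB. These are 12, 8 and 9 counts against 23 and 30, with an adjusted p of 0.385 in edgeR.

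Outside the lists, genes with the smallest p in each direction included several with GC content at the ends of the range. CDC42EP1, a binding partner of the small GTPase CDC42 with a GC content of 66.4%, was at 267, 267 and 269 CPM against 205 and 212 CPM. Its log2 fold change of -0.36 (SE 0.06) became -0.19 with the GC trend removed and was -0.10 on top of A8. SAMD11 (66.8% GC) went from -0.41 to -0.23 with the trend removed, the antisense transcript ZNF503-AS2 (60.1% GC) from -0.34 to -0.24, and the homeobox gene PBX2 (54.4% GC) from -0.41 to -0.37. The strand setting of the counting is not given in the sources used here, so reads of ZNF503-AS2 and of its partner may not be separated. On the other side, MAGOH, of the exon junction complex (0.39, SE 0.09), PRPF18, a splicing factor (0.37, SE 0.09), PAIP2, a regulator of poly(A)-binding protein (0.36, SE 0.09), ZNF146 (0.34, SE 0.08), ACSL3, a fatty acid activating enzyme (0.28, SE 0.07), and HELLS, a chromatin remodeller (0.27, SE 0.07), were higher, all with a GC content of 37.6% to 44.8%. With the GC trend removed MAGOH was at 0.33, PRPF18 at 0.27, PAIP2 and ZNF146 at 0.25, and ACSL3 and HELLS at 0.17. On top of A8 these 6 had log2 fold changes between -0.03 and 0.11.

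A few symbols share exons with a neighbour, and their counts are uncertain. NBL1 had 652, 508 and 532 counts in vehicle and 0 and 0 with ISRIB, while the readthrough transcript MINOS1-NBL1, which shares exons with it, had 172, 137 and 142 against 605 and 649. The readthrough RPL36A-HNRNPH2 had 116, 107 and 110 counts in vehicle and 134 and 456 with ISRIB. Its log2 fold change of 1.40 came from ISRIB library b, since it was 0.30 without that library and 2.02 without library a.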

How the data were processed

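The authors deposited raw counts per gene symbol for 11 polyA-selected, strand-marked libraries. Per the submitters' processing notes the build was GRCh37, with DESeq and DESeq2 as tools. The aligner and counter were not given in the sources used here. The authors' deposited results table of ISRIB against vehicle holds, per the file headers, log2 fold changes, p-values, a Wald score and a mean normalized count (a signal); the libraries in that fit are not stated, and its log2 fold changes correlated with those of edgeR at 0.957 over 15591 genes.

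Counts were tested with edgeR 4.0.16 (R 4.3.3): filterByExpr left 15591 of 27671 genes, TMM scaled the libraries, and one quasi-likelihood fit of 4 group means over 11 libraries gave each contrast, with Benjamini-Hochberg adjustment over all genes tested and calls at an adjusted p under 0.05. SEs derive from the F statistic, and intervals are 95%. Totals were 34072107 to 35318111 counts per library. Replicates differed by more than sampling noise (chi-square per degree of freedom 9.66 to 26.2 among vehicle libraries and 16.1 between the ISRIB libraries), so none was counted as a copy.

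The members and gene lists (24 lists, 258 of 259 members in the table) were chosen with earlier results of these data known. All members of the stress response and upstream lists could be named, with the 8 genes of smallest p in each direction among genes averaging at least 2 on the log2 CPM scale whose libraries did not overlap, genes called in the authors' deposited table, and up to 4 members of each other list with an unadjusted p under 0.05. Other genes were named after their values were seen. No list was tested. GC content came from GENCODE transcripts on GRCh38, matched by symbol, and the trend was removed by lowess (span 0.3) on each library's deviations, used as offsets. Deviations per library used a pseudocount of 0.5 CPM. Alternatives were DESeq2 1.42.0 and its size factors, no filter, at least 50 counts in 2 libraries, removal of the GC trend, a fit of 5 libraries, a replicate block, each library left out and, added after seeing the data, that together with GC removal and the same 9 libraries as the block without it. Scripts were tested on simulated data.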

Additional observations from a re-analysis of the deposited data

Results flagged for a closer look

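In 4 genes the fold change of ISRIB differed between cells with and without A8, by edgeR's test of the difference itself. PSAT1 had a log2 difference of -0.62 (A8 setting minus vehicle setting, adjusted p = 0.0243 in edgeR), from -0.80 (SE 0.06) on top of A8 and -0.18 (SE 0.07) without it. For SLC6A9 the difference was -0.95 (adjusted p = 0.0443 in edgeR), from -1.72 (SE 0.10) and -0.77 (SE 0.12). The heat shock genes HSPA1A and HSPA1B differed by 0.63 and 0.64 (adjusted p = 0.0243 in edgeR for both). HSPA1A rose by 0.67 with ISRIB on top of A8 and was at 0.04 without A8, and HSPA1B was at 0.67 and 0.04. As copies of nearly the same sequence, HSPA1A and HSPA1B may exchange reads, and they count as 1 observation. With the GC trend removed none of the 4 passed, with adjusted p-values of 0.0840 for PSAT1, 0.0542 for SLC6A9, 0.114 for HSPA1A and 0.0809 for HSPA1B in edgeR.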

How the results depend on the processing

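The ISRIB group has 2 libraries, and transcripts such as FGF21, GDF15 and NUPR1 have few counts. For ISRIB against vehicle, edgeR called 0 genes lower and 0 higher, DESeq2 45 and 5, edgeR with no filter 11 and 3, and a fit of only these 5 libraries 2 and 1. Leaving out 1 library gave 0 to 2 lower and 0 to 1 higher, with or without removal of the GC trend. Stress response members lower at an unadjusted p under 0.05 numbered 24, 15 to 21 with 1 library left out, and 10 to 19 with the GC trend removed as well. Their median of -0.12 ranged from -0.16 to -0.13 with 1 library left out. Sign changed for PPP1R15A (0.019) and EIF2B1 (-0.046) with the GC trend removed and, with 1 library left out, for ATF3 (range -0.18 to 0.051), CEBPG (-0.12 to 0.13), CTH (-0.22 to 0.0065) and EIF2B1 (-0.062 to 0.081); the cause was not tested.

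On top of A8, 25 genes were lower and 3 higher, 38 and 15 in DESeq2, 41 and 13 with no filter, and 14 to 29 lower and 2 to 4 higher with 1 library left out. The difference between settings gave 2 lower and 2 higher, 9 and 43 in DESeq2, 8 and 18 with no filter, 1 lower with at least 50 counts, and 0 and 0 with the GC trend removed. No paired analysis was possible because the numbers of the 2 ISRIB columns do not match their titles. For A8 with ISRIB against A8 the replicate block gave 13 lower and 2 higher, against 22 and 3 in the same 9 libraries without it. Same-numbered libraries correlated at -0.13 to 0.14 and differently numbered ones at -0.12 to 0.15. These are correlations of deviations from small group means, so they cannot decide whether the numbers pair the libraries.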
